A study of Arabidopsis thaliana with 4 samples.

Results

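The 9 genes described here make flavonols and attach sugars to them, and were followed through the leaf transcriptomes of *Arabidopsis thaliana*. They are defined by gene code: CHS (AT5G13930), CHI (AT3G55120), F3H (AT3G51240), F3'H (AT5G07990), FLS1 (AT5G08640), UGT78D1 (AT1G30530), UGT78D2 (AT5G17050), UGT78D3 (AT5G17030) and UGT89C1 (AT1G06000). All 9 were found, out of 23049 genes with at least 1 read in at least 1 library. SmE1, named in the study's title, is a subunit of the Sm ring, the protein core of the spliceosome's small nuclear particles, and the study set the line sme1-1 in the Col-0 background beside wild type Col-0 with and without cold. Plants were 2 weeks old and grew on soil in long days under 90 µmol m-2 s-1 of light, and leaves were collected. The 4 °C groups had spent 24 h at 4 °C under 40 µmol m-2 s-1, so temperature and light differ together and cannot be told apart. The 4 groups were Col-0 and sme1-1 at 20 °C and Col-0 and sme1-1 at 4 °C. Each had 1 library, and neither the number of plants in a library nor the nature of the sme1-1 lesion is given in the sources used here.

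Flavonoids are made from the phenylpropanoid p-coumaroyl-CoA in a chain of enzymes many of whose mutants are known by their pale seed coats. In Arabidopsis leaves the main products are flavonols, kaempferol and quercetin, which carry sugars and absorb ultraviolet light. Light, sucrose, nitrogen shortage and cold are all known to raise transcripts of this pathway. Early steps are shared with the anthocyanin pigments, and the flavonol branch leaves that common stem at flavonol synthase.

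Depth was 44.6 M to 47.2 M unique reads per library, so that a count of 0 allows a level of up to 0.0636 to 0.0672 CPM (3 counts; CPM is counts per M counts of the library). The targeted gene went against 2 labels: SME1 (AT2G18740) stood at 14.7 CPM in Col-0 and 27.8 CPM in sme1-1 as labelled at 20 °C, and at 0.679 and 0.919 CPM in the same order at 4 °C. Every series of 4 values below keeps this order. Between the labels at 20 °C it was 1.90-fold higher (1.72 to 2.09) with sme1-1, and it was low in both libraries labelled 4 °C. Every genotype and temperature below is therefore that of the label. Had the libraries sme1-1 20 °C and Col-0 4 °C exchanged labels, ratios between genotype labels at 20 °C or 4 °C would be ratios between temperatures. Ratios between temperature labels would then be ratios between genotypes. Such an exchange was not tested. The summed level of 6 cold-regulated genes (among them KIN1, COR15B, LTI30 and COR15A) was 221, 11521, 187 and 14936 CPM, so it went with the genotype label and not with the temperature label. Leaf was the labelled tissue, and 5 mesophyll markers summed to 66546 to 86086 CPM, although 2 of them (RCA and CA1) were at least 2-fold lower with the label sme1-1 at both temperatures. All 4 epidermis markers stayed within 2-fold (1491 to 1860 CPM in sum), and 3 seed and 3 flower markers summed to at most 0.493 and 1.59 CPM. Of 4 root markers RHD6 was at 0 throughout, COBL9 and NRT2.1 stayed at or below 1.80 CPM, and SCR, which leaves also express, made up nearly all of the rest (57.3 to 127 CPM) and was 1.97-fold (1.88 to 2.06) and 2.1-fold (2.01 to 2.20) lower with the label sme1-1. Of 3 phloem companion cell markers, 103 to 182 CPM in sum and none at 0, SUC2 was 1.87-fold (1.79 to 1.96) and 2.26-fold (2.17 to 2.36) higher with that label and SMXL5 1.46-fold (1.32 to 1.60) and 2.01-fold (1.82 to 2.22) lower. APL was also lower, 1.25-fold (1.12 to 1.40) and 1.32-fold (1.18 to 1.47). All 4 guard cell and trichome markers stayed within 2-fold between the genotype labels. The part of these markers in the results below was not tested.

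The loci differ in how cleanly their reads can be assigned. UGT78D3, AT5G17040 and UGT78D2 lie one after the other on the minus strand of chromosome 5, within 6457 bases (coordinates and sequences here are from RefSeq's TAIR10.1 genome and annotation, in which all 9 codes were found; the submitters' processing notes name TAIR10, and the deposited tables hold no coordinates). UGT78D1 is a relative on chromosome 1. Coding sequences of UGT78D2 and UGT78D3 shared 82.9% of aligned bases, UGT78D1 shared 81.2% with UGT78D2 and 79.5% with UGT78D3, and UGT89C1 shared 53.6% to 54.0% with the other 3. UGT78D3 and its neighbour AT5G17040 were closer still, with 86.5% identity and an identical run of 89 bases. Of all 50-base windows in the transcript of UGT78D3, 2.81% occurred elsewhere in the genome, against 0.0637% for UGT78D2 and none for the other 7 genes. Reads from such windows would not be unique, and the read length is not given in the sources used here. Long noncoding genes on the opposite strand cover F3H (AT3G51238, 1588 bases of overlap) and UGT89C1 (AT1G06002, 1580 bases). Neither of them is listed in the deposited tables, and without strand their reads cannot be told apart from those of the enzymes.

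Promoter windows of 4 genes are shown because their transcripts behaved differently: CHS, F3'H and UGT78D3 stood further apart between the genotype labels than the other 6, and UGT78D2 stayed within 1.5-fold. Each window runs from 250 bases before to 50 bases after the annotated gene start, 5′ to 3′ on the gene's own strand. Capitals mark the motifs searched on both strands, which were ACCTACC (a MYB recognition element), CACGTG (the G-box, which contains ACGT), ACGT (the core of light-response elements) and CCGAC (the element bound by CBF factors). The windows are chr5:4488226-4488525 (plus strand), chr5:2560078-2560377 (plus), chr5:5604844-5605143 (minus) and chr5:5609540-5609839 (minus).
CHS: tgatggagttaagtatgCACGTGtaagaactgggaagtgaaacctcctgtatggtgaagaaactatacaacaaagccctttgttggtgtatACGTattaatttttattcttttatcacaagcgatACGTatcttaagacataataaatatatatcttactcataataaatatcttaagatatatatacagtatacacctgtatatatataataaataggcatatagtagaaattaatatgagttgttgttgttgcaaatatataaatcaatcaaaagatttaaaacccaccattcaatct
F3'H: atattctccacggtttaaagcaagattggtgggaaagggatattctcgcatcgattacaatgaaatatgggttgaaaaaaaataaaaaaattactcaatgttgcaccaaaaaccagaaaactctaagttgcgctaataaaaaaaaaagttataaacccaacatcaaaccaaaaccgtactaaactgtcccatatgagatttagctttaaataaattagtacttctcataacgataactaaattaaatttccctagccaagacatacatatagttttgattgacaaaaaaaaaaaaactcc
UGT78D3: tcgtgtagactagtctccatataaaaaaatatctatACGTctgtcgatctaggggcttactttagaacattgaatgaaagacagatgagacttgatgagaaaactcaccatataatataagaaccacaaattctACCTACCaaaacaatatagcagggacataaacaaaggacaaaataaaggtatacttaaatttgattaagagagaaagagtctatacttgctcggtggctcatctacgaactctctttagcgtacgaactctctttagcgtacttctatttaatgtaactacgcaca
UGT78D2: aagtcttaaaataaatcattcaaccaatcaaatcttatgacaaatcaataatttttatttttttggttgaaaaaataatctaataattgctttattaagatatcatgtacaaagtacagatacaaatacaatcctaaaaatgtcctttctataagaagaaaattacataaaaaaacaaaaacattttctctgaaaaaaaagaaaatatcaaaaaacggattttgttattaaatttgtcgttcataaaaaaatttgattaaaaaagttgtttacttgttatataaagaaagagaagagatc
The CHS window holds a G-box from 233 to 228 bases before the start and ACGT at 2 further places. UGT78D3 holds ACCTACC from 116 to 110 bases before the start and 1 ACGT, and the windows of F3'H, UGT78D1 and UGT78D2 hold none of the 4 motifs. Over all 9 genes, ACCTACC was in 2 (UGT78D3 and UGT89C1), CACGTG in 3 (CHS, CHI and F3H), ACGT in 6 and CCGAC in 1 (UGT89C1). Of 27443 protein-coding promoters of the same length, 1.38% hold ACCTACC, 7.68% CACGTG, 49.9% ACGT and 15.0% CCGAC. None of the 4 motifs was common to CHS, F3'H and UGT78D3, and F3'H and UGT78D2 are alike in holding none. Other motifs and sequence outside the windows were not searched, and the part of any motif in the levels was not tested.

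Levels per length were compared within libraries with the deposited RPKM (reads per kilobase of gene and M reads). CHS, chalcone synthase, which makes the first flavonoid skeleton, was the most abundant of the 9 in every library, at 438, 1824, 513 and 2340 RPKM. It ranked 219th, 46th, 184th and 32nd among all genes and took 0.0653%, 0.272%, 0.0765% and 0.349% of all counts. UGT78D3 was the lowest in every library, at 0.0768, 8.31, 0.189 and 10.3 RPKM, and its reads covered 24.5%, 98.8%, 50.3% and 98.8% of the gene length. F3'H was next lowest, at 4.36, 23.8, 6.06 and 31.0 RPKM. The other 6 genes lay between 35.5 and 145 RPKM, a range in which their order changed from library to library. UGT78D2, UGT78D1 and FLS1 led this middle group in Col-0 at 20 °C (91.5, 81.0 and 62.4 RPKM), and CHI and FLS1 led it in sme1-1 at 4 °C (145 and 118 RPKM). With 1 library per group, no spread was available to say which neighbours in this order differ. UGT89C1 has a length of 2529 bases in the tables against an annotated transcript of 1587 bases and was covered over 66.2% to 79.1% of the former, so its level per length depends on the length used. Of the other genes only F3H had the same length in both (1508 bases). The differences of the rest were smaller, as for CHS (1491 against 1703 bases), CHI (930 against 1112) and UGT78D3 (1460 against 1615). Comparisons per length depend on these lengths too.

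**Figure D1:**
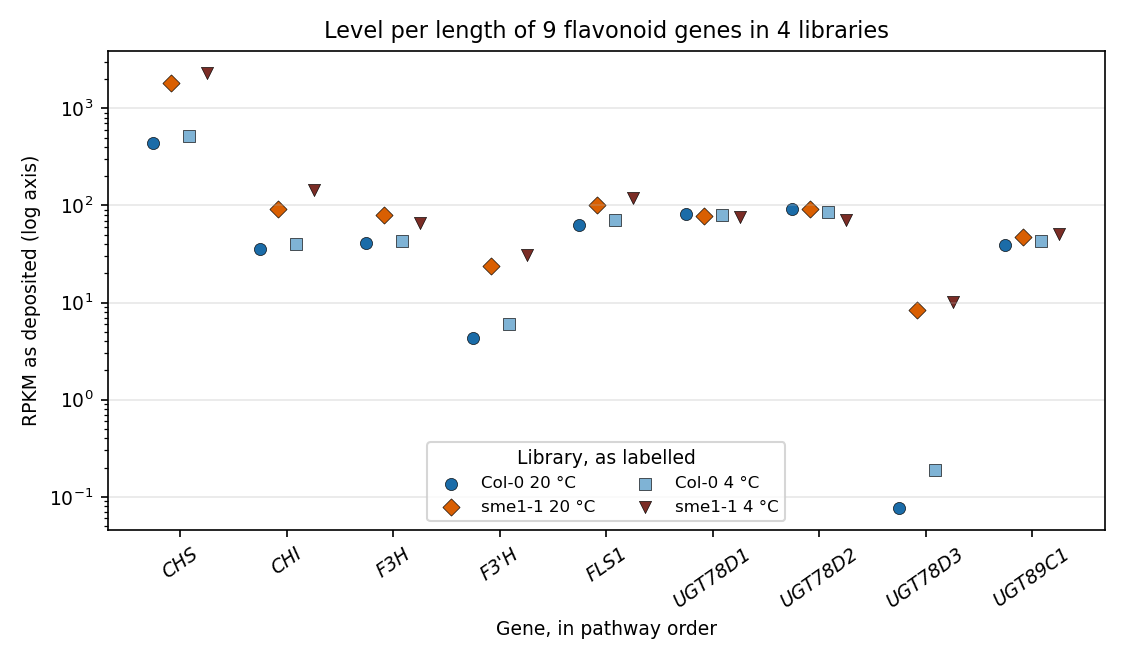
Deposited RPKM (log axis) of the 9 genes, in pathway order, in the 4 libraries named by their labels, with 1 point per library. CHS lies above all others (438 to 2340 RPKM), the points of UGT78D1 and UGT78D2 nearly coincide, and UGT78D3 spans from 0.0768 to 10.3 RPKM.

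The first comparison set the 2 genotype labels against each other at 20 °C. With the label sme1-1, 4 of the 9 genes (CHS, CHI, F3'H and UGT78D3) were higher by 2-fold or more, and none was lower by that much. Among the 17218 genes that averaged 1 CPM or more, 9.1% were at least 2-fold higher and 7.13% lower (16.2% together). The median log2 ratio was 0.96 for the 9 genes and 0.03 for all genes compared. Intervals of ratios are exact (95%, conditional on the sum of both counts) and cover counting error only, with no biological spread. In bulk leaf RNA, moreover, fewer cells of a type and less RNA per cell cannot be told apart.

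Among the enzymes that build the flavonoid skeleton, CHS and CHI differed more than F3H. CHS stood at 653, 2719, 765 and 3489 CPM, which is 4.16-fold higher (4.11 to 4.22) with sme1-1 at 20 °C and 4.56-fold higher (4.51 to 4.61) at 4 °C. CHI, chalcone isomerase, which closes the ring to naringenin, stood at 33.0, 84.7, 37.5 and 135 CPM, ratios of 2.57 (2.42 to 2.73) and 3.60 (3.42 to 3.80). Both genes were lower in the pair labelled Col-0 than in the pair labelled sme1-1. The share of all genes with such an order was not counted. F3H, flavanone 3-hydroxylase, which makes dihydroflavonols, was at 62.2, 121, 65.1 and 98.5 CPM. Its ratios were smaller, 1.95 (1.86 to 2.04) and 1.51 (1.45 to 1.58), so it did not reach 2-fold at either temperature label. Per length, CHS was 10.6-fold and 11.9-fold above F3H in the libraries labelled Col-0 and 22.7-fold and 35.8-fold above it in those labelled sme1-1 (20 °C first).

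Downstream of F3H, the hydroxylase and the synthase parted. F3'H, the cytochrome P450 that adds the hydroxyl group by which quercetin differs from kaempferol, was at 8.002, 43.7, 11.1 and 57.0 CPM. It was 5.46-fold higher (4.87 to 6.12) and 5.13-fold higher (4.67 to 5.64) with the label sme1-1. FLS1, the main flavonol synthase, was at 83.3, 137, 94.4 and 158 CPM, 1.64-fold (1.57 to 1.71) and 1.67-fold (1.61 to 1.74) higher. Both genes again had their higher levels in the libraries labelled sme1-1, but F3'H was the one past 2-fold. How many of all genes have that order was not counted. Per length, F3'H was 14.3-fold and 11.7-fold below FLS1 in the libraries labelled Col-0, and 4.30-fold and 3.82-fold below it in those labelled sme1-1 (20 °C first).

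The 4 glycosyltransferases, which attach sugars to flavonols, did not move as a block. UGT78D3, a flavonol arabinosyltransferase, had 5, 546, 13 and 701 reads, which is 0.112, 12.1, 0.276 and 15.0 CPM. It was 108-fold higher (46.1 to 335) with the label sme1-1 at 20 °C and 54.3-fold higher (31.6 to 103) at 4 °C. Its neighbour AT5G17040 also had more reads in the libraries labelled sme1-1 (2.62, 8.43, 2.42 and 8.65 CPM). By contrast UGT78D2, the glucosyltransferase at the other end of the same tandem, was at 139, 139, 132 and 109 CPM, ratios of 1.00 (0.966 to 1.04) and 0.823 (0.793 to 0.854). UGT78D1, which transfers rhamnose to the same position of the flavonol, was at 148, 141, 145 and 139 CPM, with ratios of 0.955 (0.922 to 0.988) and 0.956 (0.924 to 0.989). UGT89C1, which the annotation describes as a flavonol-7-O-rhamnosyltransferase, was at 98.5, 120.5, 110.1 and 128 CPM, ratios of 1.22 (1.18 to 1.27) and 1.16 (1.12 to 1.20). Each of these 3 glycosyltransferases differed by less than 1.5-fold between any pair of the 4 libraries, whereas UGT78D3 went from at most 13 reads in the libraries labelled Col-0 to at least 546 in those labelled sme1-1.

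At 4 °C CHS, CHI, F3'H and UGT78D3 again passed 2-fold with the label sme1-1 and no gene was lower by that much, with 11.8% of all genes higher and 7.85% lower (19.7% together). The median log2 ratio of the 9 genes was 0.74, against 0.09 for all genes compared, which moves to -0.01 with TMM factors, a shift that lowers every ratio of this pair alike. Leaving out the 2 libraries in which SME1 went against the labels leaves 1 pair, sme1-1 4 °C against Col-0 20 °C, in which genotype and temperature labels differ together. In that pair 4 genes, again these, passed 2-fold upwards and none downwards, against 12% and 9.84% of all genes (21.9% together). The ratios there were 5.34 (5.27 to 5.41) for CHS, 4.10 (3.87 to 4.34) for CHI, 7.12 (6.37 to 7.97) for F3'H and 134 (57.0 to 413) for UGT78D3. The cold-regulated genes moved with the same label in each of these pairs (COR15A was 197-fold higher at 20 °C and 208-fold at 4 °C), and their part in the flavonoid ratios was not tested.

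**Figure D2:**
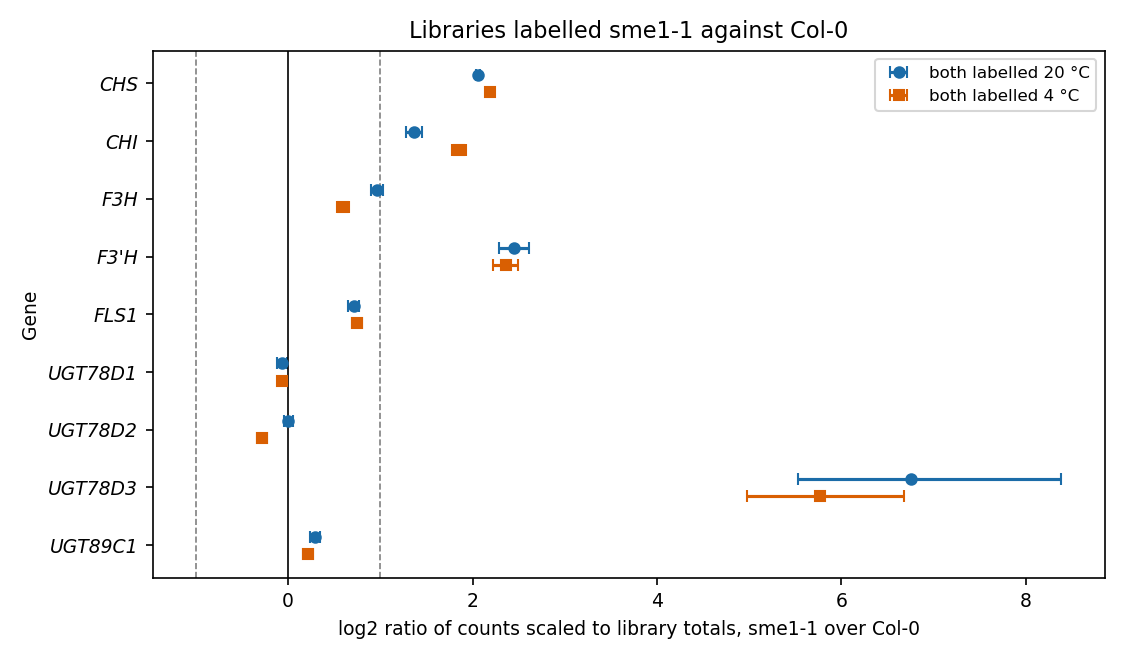
Log2 ratio of library-scaled counts, sme1-1 over Col-0 by label, for each gene at 20 °C (circles) and 4 °C (squares). Bars are exact 95% counting intervals, some shorter than the symbol, and dashed lines mark 2-fold; CHS, CHI, F3'H and UGT78D3 lie beyond 2-fold in both pairs.

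A model with 1 term for the genotype label and 1 for the temperature label left 1 residual degree of freedom. The error of these differences rests mostly on the variance pooled over all genes (15.6 prior degrees of freedom beside that 1), and holds no spread between replicates of a group. In edgeR's quasi-likelihood test with Benjamini-Hochberg adjustment over all 17218 genes, 6 of the 9 genes were higher with the label sme1-1 and none lower, where 24.2% of all genes were higher and 17.8% lower (42% together). UGT78D3 rose by a log2 of 6.12 ± 0.33 (SE, edgeR adjusted p = 6.46e-10), F3'H by 2.40 ± 0.17 (adjusted p = 1.52e-08), CHS by 2.12 ± 0.18 (adjusted p = 1.02e-07) and CHI by 1.61 ± 0.17 (adjusted p = 1.71e-06). Each of these was higher in both libraries labelled sme1-1 than in either labelled Col-0, and so were F3H, FLS1 and UGT89C1. For this order too, the share of all genes was not counted. F3H (0.78 ± 0.16, edgeR adjusted p = 0.00116) and FLS1 (0.73 ± 0.16, adjusted p = 0.0015) also passed. UGT89C1 (0.25 ± 0.16, adjusted p = 0.212), UGT78D2 (-0.14 ± 0.16, adjusted p = 0.514) and UGT78D1 (-0.07 ± 0.16, adjusted p = 0.766) did not pass in edgeR. A miss of the threshold does not show that these 3 genes were equal between labels.

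For CHS, CHI, F3H, F3'H, FLS1 and UGT78D3 the temperature labels gave smaller ratios than the genotype labels, and for the other 3 glycosyltransferases both were small. UGT78D2 had log2 ratios of -0.08 (Col-0) and -0.36 (sme1-1) by temperature against 0.00 (20 °C) and -0.28 (4 °C) by genotype. Between the 2 libraries labelled Col-0, 1 of the 9 genes was at least 2-fold higher at 4 °C and none lower, with 0.865% of all genes higher and 0.871% lower (1.74% together). That gene was UGT78D3 with 13 against 5 reads, a ratio of 2.46 whose interval (0.823 to 8.81) includes 1. Between the 2 libraries labelled sme1-1 none of the 9 genes was 2-fold apart, with 3.26% of all genes at least 2-fold higher and 2.56% lower (5.83% together). CHI differed most there, 1.60-fold higher at 4 °C (1.53 to 1.66), and CHS was 1.28-fold higher (1.27 to 1.29). CHS, CHI, F3'H, FLS1 and UGT89C1 were higher at 4 °C within both genotype labels, with intervals above 1. These intervals hold counting error only, and the share of all genes with such a pattern was not counted. In Col-0 CHS was 1.17-fold (1.15 to 1.19), CHI 1.14-fold (1.06 to 1.22) and F3'H 1.39-fold (1.21 to 1.59) higher. FLS1 was 1.13-fold (1.09 to 1.18) and UGT89C1 1.12-fold (1.07 to 1.16) higher there. In sme1-1 F3'H was 1.30-fold (1.23 to 1.38), FLS1 1.16-fold (1.12 to 1.20) and UGT89C1 1.06-fold (1.02 to 1.10) higher. F3H was at 1.05 times its 20 °C level in Col-0 (0.993 to 1.10) and 1.23-fold lower in sme1-1 (1.18 to 1.28). UGT78D2 was lower at 4 °C within both labels, 1.06-fold (1.02 to 1.09) and 1.28-fold (1.24 to 1.33), and the intervals of UGT78D1 included 1 in both. Whether an interval so close to 1 includes it depends on the scaling, and intervals are given with library totals only. With TMM factors the log2 ratio moved from -0.08 to -0.04 for UGT78D2 in Col-0. For UGT89C1 in sme1-1 it moved from 0.08 to 0.05, and for UGT78D1 in sme1-1 from -0.03 to -0.06.

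In the additive model none of the 9 genes passed for the temperature label, in edgeR's quasi-likelihood test or in DESeq2, where 0.918% of all genes were higher and 1.13% lower in edgeR (2.05% together). F3'H (0.43 ± 0.16, unadjusted p = 0.0176, edgeR adjusted p = 0.21) and CHI (0.43 ± 0.17, unadjusted p = 0.0198, adjusted p = 0.225) were the 2 genes below an unadjusted p of 0.05 in edgeR, and DESeq2 also had 2. Whether the genotype ratio differed between temperature labels could be given as a value only, with a normal-approximation 95% interval from the 4 counts. CHI had a log2 ratio 0.49 larger at 4 °C than at 20 °C (0.37 to 0.60), F3H a smaller one (-0.37, interval -0.46 to -0.27) and UGT78D2 a smaller one (-0.28, -0.36 to -0.21). UGT78D3 had the widest difference, -0.995 (-2.49 to 0.50). No gene's ratio differed by as much as 2-fold between temperature labels, though UGT78D3 lay at that limit and passed it with TMM or DESeq2 size factors.

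**Figure D3:**
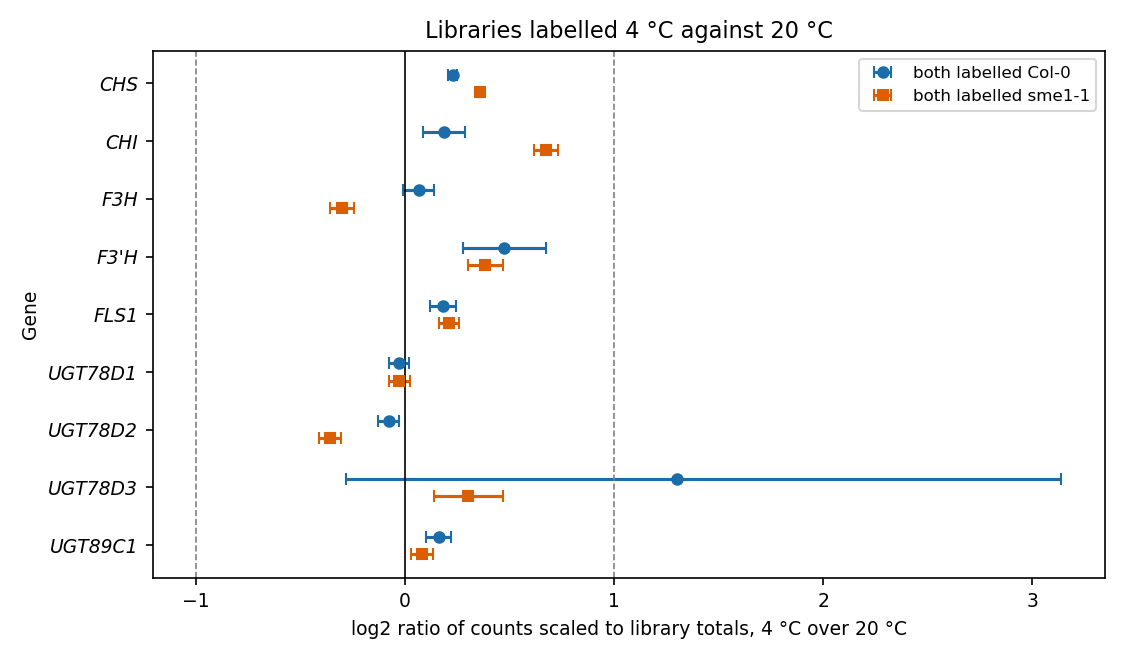
Log2 ratio of library-scaled counts, 4 °C over 20 °C by label, for each gene in Col-0 (circles) and sme1-1 (squares), with exact 95% counting intervals and dashed lines at 2-fold. All points but that of UGT78D3 in Col-0 lie within 2-fold, and F3H lies on opposite sides of 0.

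The steps before chalcone synthase went in both directions. Of 9 general phenylpropanoid genes, none was at least 2-fold higher with the label sme1-1. By that much 2 were lower at 20 °C (4CL1 and 4CL5) and 1 at 4 °C (4CL1), with median log2 ratios of -0.48 and -0.33. Among all genes compared, 9.1% were at least 2-fold higher and 7.13% lower at 20 °C, and 11.8% and 7.85% at 4 °C. 4CL1, a coumarate-CoA ligase known mainly for lignin, was at 336, 93.5, 331 and 73.9 CPM, 3.59-fold (3.47 to 3.72) and 4.48-fold (4.32 to 4.65) lower. In edgeR's additive model 2 of these 9 genes were higher (PAL2 and PAL3, phenylalanine ammonia-lyases) and 2 lower (4CL1 and 4CL5), close to the 24.2% higher and 17.8% lower of all genes. PAL2 was 1.65-fold (1.62 to 1.68) and 1.45-fold (1.43 to 1.48) higher, and PAL3 was 1.51-fold (1.36 to 1.68) and 1.79-fold (1.61 to 1.99) higher. The monolignol and sinapate branch draws on the same precursors. In it 1 of 9 genes was at least 2-fold lower at each temperature label and none higher, beside the same shares of all genes. That gene was SNG1, a sinapoyltransferase, 2.01-fold lower (1.96 to 2.06) at 20 °C and 2.99-fold (2.90 to 3.08) at 4 °C. CCR1, cinnamoyl-CoA reductase, was 1.73-fold (1.68 to 1.78) and 1.38-fold (1.34 to 1.42) lower. REF1, an aldehyde dehydrogenase that makes sinapate and ferulate, was 1.41-fold (1.36 to 1.46) and 1.70-fold (1.64 to 1.76) higher. CAD5, a cinnamyl alcohol dehydrogenase, was 1.27-fold (1.16 to 1.38) and 1.48-fold (1.37 to 1.61) higher. EdgeR's model called these 2 genes of the branch higher and 4 lower (SNG1, CCR1, HCT and CYP98A3), where over all genes 24.2% were higher and 17.8% lower.

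Among 13 other flavonol genes, 8 had a mean of at least 1 CPM, and the 5 others were FLS2 to FLS6, relatives of FLS1 that stayed at or below 0.829 CPM. RHM1, which makes the UDP-rhamnose that UGT78D1 and UGT89C1 use, was at 439.9, 1109, 428 and 1127 CPM. It was 2.52-fold (2.48 to 2.56) and 2.64-fold (2.59 to 2.68) higher with the label sme1-1, while neither rhamnosyltransferase reached 1.5-fold. CHIL, a partner protein of chalcone synthase, was 1.89-fold (1.83 to 1.94) and 1.64-fold (1.60 to 1.69) higher. UGT73C6, another flavonol glycosyltransferase gene, was low and went the other way, 9.41-fold lower (5.18 to 18.8) at 20 °C and 5.81-fold lower (3.28 to 11.1) at 4 °C. The additive model called 4 of the 8 genes higher and 2 lower, where over all genes 24.2% were higher and 17.8% lower.

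The anthocyanin branch uses the same dihydroflavonols as FLS1. Of 10 genes listed for it, 7 had a code and symbol that the annotation pairs. At each temperature label 5 of these 7 were at least 2-fold higher with the label sme1-1 and none lower. Among all genes compared, 9.1% were higher and 7.13% lower by that much at 20 °C, and 11.8% and 7.85% at 4 °C. The median log2 ratios of the branch were 1.87 and 1.60. DFR, dihydroflavonol reductase, which competes with FLS1 for substrate, was at 30.6, 111, 50.8 and 131 CPM, 3.65-fold (3.43 to 3.87) and 2.58-fold (2.46 to 2.70) higher. TT19, a glutathione S-transferase needed for anthocyanins to accumulate, was 5.53-fold (5.07 to 6.04) and 5.24-fold (4.90 to 5.62) higher. UGT79B1, which adds xylose to anthocyanins, was 5.08-fold (4.49 to 5.76) and 3.20-fold (2.93 to 3.50) higher, and LDOX, anthocyanidin synthase, was 4.14-fold (3.80 to 4.52) and 3.26-fold (3.04 to 3.50) higher. In edgeR's additive model 6 of the 7 were higher, all but SCPL10, and none lower, where over all genes 24.2% were higher and 17.8% lower. Of the 7 genes of proanthocyanidins and the seed coat none had a mean of 1 CPM, and BAN, which diverts the branch to tannins, was at 0 in all 4 libraries.

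The known regulators went in both directions. Of 23 listed, 19 had a mean of at least 1 CPM. Of these, 4 were at least 2-fold higher and 3 lower at 20 °C, and 4 higher and 4 lower at 4 °C. Among all genes compared, 9.1% were higher and 7.13% lower by that much at 20 °C, and 11.8% and 7.85% at 4 °C. Higher were MYBL2, a repressor of anthocyanin synthesis (5.57-fold, 5.10 to 6.09, and 6.48-fold, 5.82 to 7.21), and LBD39, a nitrate-responsive repressor (4.17-fold, 3.91 to 4.44, and 4.10-fold, 3.85 to 4.36), and TT8, a bHLH activator of the late steps, was 3.27-fold (2.73 to 3.94) and 2.20-fold (1.89 to 2.58) higher. Lower were HY5, a light-signalling activator that binds ACGT elements (37.6, 10.3, 35.1 and 6.41 CPM), and MYB4, a repressor of phenylpropanoid genes (54.7, 17.1, 53.2 and 15.5 CPM). Of the 19, edgeR's model called 6 higher and 5 lower, where over all genes 24.2% were higher and 17.8% lower. Of the flavonol-specific activators, MYB111 and MYB12 went opposite to CHS between the genotype labels. MYB111 was at 16.3, 9.03, 19.3 and 7.86 CPM, 1.81-fold (1.60 to 2.05) and 2.45-fold (2.17 to 2.78) lower with the label sme1-1. MYB11 stayed between 1.18 and 2.39 CPM, and its ratios of 0.762 (0.522 to 1.11) and 1.19 (0.896 to 1.58) had intervals that include 1. MYB12, below the filter, was at 1.19, 0.422, 1.53 and 0.641 CPM, 2.81-fold (1.64 to 5.03) and 2.38-fold (1.54 to 3.78) lower. MYB111 and MYB12 were thus lower in both libraries in which CHS, CHI and F3'H were higher.

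**Figure D4:**
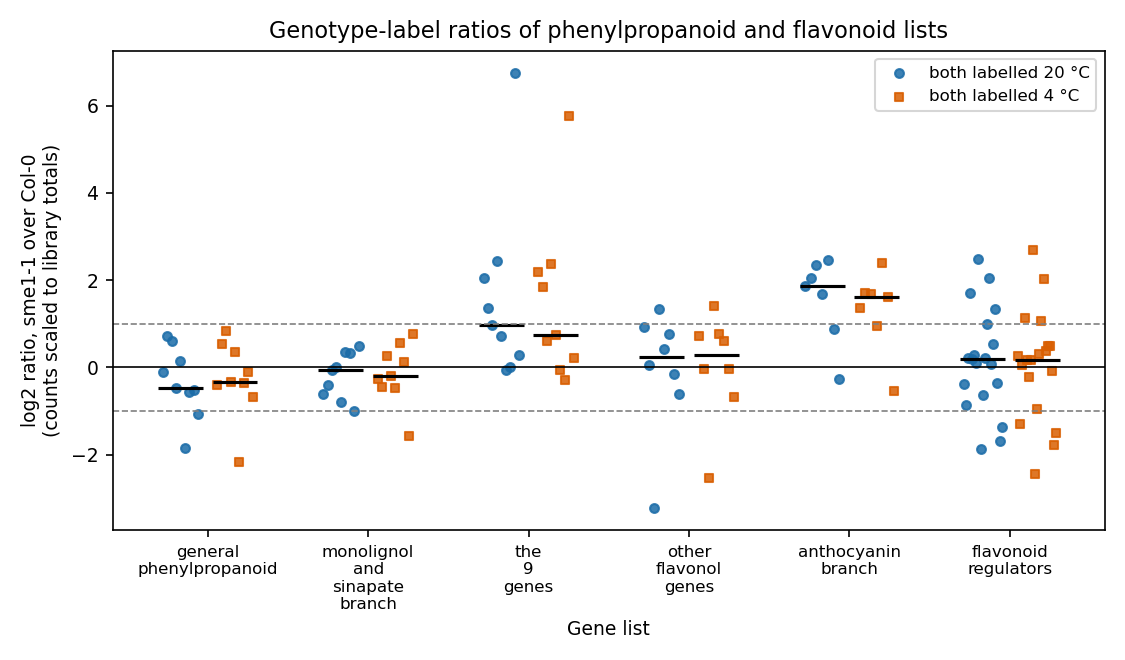
Log2 ratios of sme1-1 over Col-0 by label for the 9 genes and for genes of 5 lists that averaged 1 CPM or more, at 20 °C (circles) and 4 °C (squares). Black bars are medians and dashed lines 2-fold; the anthocyanin medians are 1.87 and 1.60, those of the 9 genes 0.96 and 0.74, and those of general phenylpropanoid genes -0.48 and -0.33.

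Across the 4 libraries, profiles of log2(CPM + 1), centred per gene, were compared by Euclidean distance over 10375 other genes that averaged 10 CPM or more. The genes most like CHS were AT3G01310 (distance 0.13), AT1G33970 (0.18), AT5G51570 (0.18), AT5G42570 (0.19) and PLC4 (0.20). F3'H lay at a distance of 0.22 from CHS with 9 genes nearer, CHI at 0.59 with 118 nearer, FLS1 at 1.40 with 1256 nearer and F3H at 1.43 with 1357 nearer. UGT78D1 and UGT78D2 were at 2.21 and 2.33, with 6077 and 6871 other genes nearer to CHS. OEP16-1 (0.16), AT5G17460 (0.32), ERD10 (0.32), AT3G55580 (0.33) and the glutamine synthetase gene AT5G37600 (0.36) were the genes most like UGT78D3. UGT78D3 itself averaged less than 10 CPM. It was at 0.112 and 0.276 CPM in the libraries labelled Col-0, so the added 1 CPM shrinks its ratios between genotype labels. Nearness to it therefore does not mean an equal ratio. At 20 °C OEP16-1 went from 28.3 (Col-0) to 320 CPM (sme1-1), and UGT78D3 from 0.112 to 12.1 CPM. With 4 points per profile, likeness describes these libraries and no more.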

How the data were processed

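RNA sequencing of 4 leaf libraries was analysed from the authors' table per library. Per the file headers each deposited count holds a gene's unique reads, and the counts of a table sum to the total in its header. Coverage was deposited as percent of the gene's length. RPKM values, deposited too, were recomputed from count, length and total without difference beyond rounding. Per the submitters' processing notes the build was TAIR10; neither aligner nor counter is named in the sources used here. Counts were divided by the library total, and a missing gene was taken as 0. Genes averaging 1 CPM or more were compared (17218), and a call was 2-fold. The additive model used edgeR 4.0.16 (R 4.3.3) on library totals, tested on simulated counts first, with DESeq2 1.42.0 as an alternative; the SE comes from the log2 change and its F statistic. Symbols and products came from RefSeq's TAIR10.1 annotation. Of 107 list genes 5 whose code and symbol it does not pair were left out. That AT2G18740 is SME1 and AT1G06000 is UGT89C1 is background knowledge.

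Members, lists and tests were chosen with earlier results of these data known. Genes named from a list were 2 to 4 of its genes furthest from 0 in log2 ratio at 20 °C or at 4 °C; the choice of FLS2 to FLS6, CYP98A3, SCPL10, BAN, MYB11, MYB12 and MYB111, which fall outside it, followed sight of their values. Also tried were TMM and DESeq2 size factors, a 1.5-fold call and no filter. Ratios used scipy 1.17.1 and pandas 2.3.3, and figures matplotlib 3.10.9, in Python 3.11.15.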

Additional observations from a re-analysis of the deposited data

How the results depend on the processing

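The counts of the 9 genes at least 2-fold apart were the same with TMM factors and with DESeq2 size factors in all 5 comparisons of 2 libraries. The filter does not enter these counts. With a call at 1.5-fold they were 6, 6 and 6 in place of 4 in the comparisons that differ by genotype label. For 4 °C against 20 °C in sme1-1 the count was then 1 in place of 0 (CHI). How many of all genes passed 1.5-fold was not counted. The number of genes whose genotype ratio differed by 2-fold between temperature labels was 0, and 1 (UGT78D3) with TMM factors and with DESeq2 size factors. The additive model called 6 genes for genotype and 0 for temperature with TMM factors, with DESeq2 and without the filter. Over all genes, calls without the filter were 5831 against 2794 (genotype, 20 °C), 6616 against 3391 (genotype, 4 °C), 2942 against 299 (temperature, Col-0), 3960 against 1003 (temperature, sme1-1) and 7158 against 3764 (sme1-1 4 °C against Col-0 20 °C), since genes with few reads then enter. For the temperature label in the additive model they were 353 with library totals, 224 with TMM factors and 216 in DESeq2. The cause was not tested. For the genotype label, calls over all genes were 4161 higher and 3071 lower with library totals. With TMM factors they were 3533 and 3491, and in DESeq2 2793 and 2617, so the excess of higher calls was smaller there. Of the 2-fold calls between genotype labels at 4 °C, 60.1% were higher with library totals and 51.0% with TMM factors. No paired analysis was possible because each group has 1 library and the labels carry no replicate numbers. Leaving out a library leaves the additive model no residual degree of freedom, and the ratios of single pairs of libraries are what remains. UGT78D3 in the libraries labelled Col-0 rests on 5 and 13 reads, so depth limits its ratios most.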
